A study of Mus musculus with 29 samples.

Results

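The effect of a STAT3 inhibitor (STAT3i) on the transcriptome of epidermis labelled as wild type for Dlx3 was measured by comparing 3 libraries of such (WT) mouse epidermis given the inhibitor with 4 libraries of WT epidermis given vehicle. These 7 libraries, of 29 in the series, were chosen by genotype and treatment in the table header and not by any measured value. All came from skin sampled 3 days after tamoxifen, from adult mice of mixed background aged 42 to 46 days per the series title. The study deletes Dlx3, which encodes a homeobox factor active as keratinocytes differentiate, in icKO mice. The deletion uses a Cre that tamoxifen switches on and that the K14 promoter, active in basal keratinocytes, drives. Epidermis of icKO mice with vehicle (4 libraries) and with the inhibitor (4 libraries) is used beside the WT values. The sources used here do not name the inhibitor, its dose or its route, and do not say whether WT mice carried Cre or whether each library came from 1 animal. The p-values therefore measure the spread between these libraries, which may be technical. The icKO vehicle library c carried both Xist (7.2 RPKM) and Ddx3y (5.88 RPKM), and whether it pooled animals is not stated. Of 24543 genes in the table of RPKM (reads per kilobase of transcript, scaled to the mapped reads of the library), 13211 reached 1 RPKM in at least 3 of the 7 libraries and were tested.

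STAT3 is a latent transcription factor. Cytokine receptors of the IL-6, IL-20 and IL-10 families and growth factor receptors activate it through Janus kinases, after which it enters the nucleus and binds DNA. Its transcriptional targets include Socs3, whose product inhibits the same receptors, and in skin STAT3 is known for its roles in wound repair, hair growth and psoriasis-like inflammation. An inhibitor of the protein acts after transcription of Stat3, so the level of Stat3 mRNA does not by itself report whether the protein was inhibited.

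The libraries held transcripts of tissues other than epidermis, and the 4 vehicle libraries, lettered a to d as names only, did not form 1 tight group. Keratinocyte transcripts were abundant in the 7 libraries (Krt10 at 2350 to 3860 RPKM, Krt5 at 1170 to 1890 RPKM), but so were the skeletal muscle actin Acta1 at 3380 to 5350 RPKM and the collagen gene Col1a1 at 316 to 4480 RPKM, while the hair keratin Krt71 was at no more than 0.127 RPKM. The mean log2(RPKM + 1) of 18 macrophage genes was 5.92 and 6.05 in vehicle a and b and 4.19 and 4.31 in vehicle c and d, against 6.35, 6.19 and 6.38 with STAT3i. Vehicle c alone carried Xist (18.7 RPKM) and lacked Ddx3y, vehicle c had the lowest Col1a1, and vehicle b had 89.2 RPKM of the stress keratin Krt6b, the highest of the 7. Dlx3 was at 3.04, 0.95, 7.13 and 7.21 RPKM in vehicle a to d, at 6.77, 6.07 and 6.31 RPKM with STAT3i and at 1.01 to 2.22 RPKM in icKO libraries. The library labelled WT vehicle b was thus below every icKO library and went against its genotype label, and it is called vehicle b only as a name. Of 82 named genes past the threshold, 81 stayed past it without that library. The STAT3i libraries resembled each other more closely than any pair of vehicle libraries (Pearson r of log2 RPKM across genes 0.997 to 0.998, against 0.978 to 0.993), and recorded depth was 48.9 to 68.9 M alignments. In bulk RNA, fewer cells of a type and less RNA per cell cannot be told apart.

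**Figure D1:**
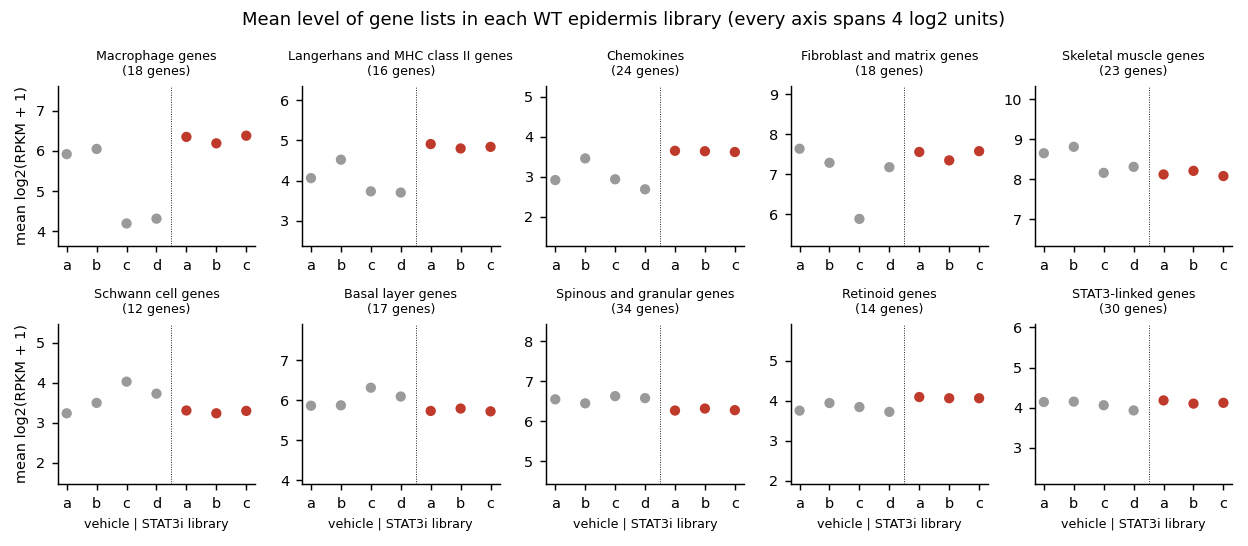
Mean log2(RPKM + 1) of 10 gene lists in the 4 vehicle (grey) and 3 STAT3i (red) WT libraries, 1 point per library; each vertical axis spans the same number of log2 units. Macrophage transcripts were low in vehicle c and d, and the Langerhans and MHC class II list was higher in the 3 STAT3i libraries (4.8 to 4.91) than in the 4 vehicle libraries (3.7 to 4.52).

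With the inhibitor, 2032 genes passed an adjusted p of 0.05 (15.4% of those tested), 1187 of them higher (8.98%) and 845 lower (6.40%). Changes were mostly small: 552 genes rose and 161 fell by at least 1.5-fold on the log2(RPKM + 1) scale (5.40% of tested genes together), and the median log2 change of all tested genes was -0.005. The libraries of the groups did not overlap for 1918 of the calls, and for 27.7% of all tested genes (STAT3i above in 14.8% and below in 13%). Higher calls made up 58.4% of the total, and 46.5% after quantile normalization. The count rested on single libraries, being 146 without STAT3i a, 187 without STAT3i c, 975 without STAT3i b, 960 without vehicle d, 1054 without vehicle c and 3275 without vehicle b. Without vehicle c and d together it was 558, of which 443 were among the 2032, and a fit of the 7 WT libraries alone gave 245. Because of this spread, the number of alternative analyses, of 21 or 22, in which a gene stayed past the threshold is given for the main genes below. Genes with 21 dropped out of the alternative that required 1 RPKM in all 7 libraries. Some of them reached the filter only through the group in which they were high. The authors' deposited table listed 1811 genes at q under 0.05 for the same comparison, and 1512 of the 2032 genes had such a q there.

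The best-known transcriptional targets of STAT3 did not pass the threshold. Socs3 was at 8.18, 7.31, 13.3 and 9.43 RPKM in vehicle a to d and at 7.74, 8.29 and 6.74 RPKM in STAT3i a to c. These values overlapped, and the log2 change was -0.27 ± 0.21 (SE, adjusted p = 0.384). The promoter of Socs3 is shown because it holds a match to the STAT motif TTCNNNGAA, a palindrome searched on both strands in the 250 bases before the start. It is the RefSeq sequence of the 200 bases before the start site (GRCm38.p6, chr11:117969367-117969566, minus strand) with the match in capitals, whose first base lies 154 bases before the start.
Socs3: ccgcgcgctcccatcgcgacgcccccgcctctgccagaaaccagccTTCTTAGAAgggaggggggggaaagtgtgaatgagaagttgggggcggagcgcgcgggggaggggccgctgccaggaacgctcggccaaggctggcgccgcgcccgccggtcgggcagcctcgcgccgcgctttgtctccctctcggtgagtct
The motif was found in 7.02% of the 32851 promoter windows in the RefSeq table, in 7.07% of those of tested genes and in 3 of the 22 tested STAT3-linked genes with a window (Socs3, Icam1 and Tnfrsf1a). A match is a description of the sequence, not evidence of binding.

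Stat3 and most other genes linked to it did not pass either. Stat3 itself was at 38.1, 39.1, 34.2 and 29.2 RPKM with vehicle and at 37.2, 39.3 and 38.3 RPKM with STAT3i (log2 change 0.13 ± 0.11, SE, adjusted p = 0.443). Bcl3, a co-regulator of NF-kappaB, had 4.46, 6.43, 2.11 and 3.53 RPKM with vehicle and 5.77, 4.94 and 4.8 RPKM with STAT3i (adjusted p = 0.328). In both genes the groups overlapped. The kinase gene Pim1 (log2 change 0.02 ± 0.10, SE, adjusted p = 0.887), the oncostatin M receptor gene Osmr (0.00 ± 0.10, adjusted p = 0.992) and the IL-6 receptor gene Il6ra (0.20 ± 0.16, adjusted p = 0.402) did not pass either, and Fosl1 was under the filter. A STAT3-linked list had 30 tested genes, of which 2 rose and 0 fell. Their median log2 change was 0.03. The tested members that did not pass include Myc, Mcl1, Junb, Vegfa, Hif1a and Birc5, whose log2 changes ran from -0.18 to 0.03. Over all 30 members the changes ran from -0.47 to 0.93, and both ends were genes that did not pass.

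The 2 STAT3-linked genes that rose, Il6st and Icam1, were 6.67% of the 30 tested, against 8.98% of all tested genes that rose. Il6st, which encodes gp130, the signalling chain shared by the IL-6 family receptors, was at 31.0, 29.1, 26.4 and 31.1 RPKM with vehicle and at 35.7, 36.4 and 37.4 RPKM with STAT3i. The groups did not overlap, the log2 change was 0.31 ± 0.09 (SE, adjusted p = 0.0401), and the call held in 9 of 22 alternatives. Icam1, an adhesion molecule for leukocytes, was at 9.91 to 16.4 RPKM with vehicle and at 17.9 to 19.1 RPKM with STAT3i (0.55 ± 0.16, adjusted p = 0.0345). Neither passed when the 7 WT libraries were fitted alone or when any STAT3i library was left out.

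Of 21 tested STAT, Janus kinase and SOCS family genes, 4 rose (Stat6, Tyk2, Jak3 and Ptpn6) and 1 fell (Socs7), with a median log2 change of 0.09. These calls were 23.8% of the list, against 15.4% of all tested genes. None passed without STAT3i a or without STAT3i c, and 1 passed without vehicle d. Stat6, the transcription factor of IL-4 and IL-13 signalling, was at 31.8, 30.8, 27.0 and 28.3 RPKM with vehicle and at 38.0, 36.6 and 39.0 RPKM with STAT3i (0.35 ± 0.09, SE, adjusted p = 0.022, 14 of 22 alternatives). Tyk2, a Janus kinase, rose by 0.44 ± 0.10 (adjusted p = 0.0198, 16 of 22). Ptpn6, a phosphatase that dampens Janus kinase signalling and is abundant in leukocytes, rose from 17.4 to 19.9 RPKM with vehicle to 24.9 to 27.7 RPKM with STAT3i (0.44 ± 0.11, adjusted p = 0.0225).

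Of 6 tested genes of the IL-20 family, 1 rose and 1 fell (33.3%, against 15.4% of all tested genes called), with a median of -0.62, and 4 did not pass. Il22ra1, the epithelial chain of the IL-22 receptor, was at 7.78, 5.57, 9.69 and 8.91 RPKM with vehicle and at 3.88, 4.47 and 3.91 RPKM with STAT3i. Every STAT3i library was below every vehicle library, and the gene fell by 0.80 ± 0.14 (log2, SE, adjusted p = 0.00831). Its partner chain gene Il10rb rose from 17.5 to 33.7 RPKM with vehicle to 36.2 to 41.0 RPKM with STAT3i (0.68 ± 0.19, adjusted p = 0.0359). The vehicle libraries with low Il10rb, at 17.5 and 18.2 RPKM, were c and d. The cytokine genes Il6, Il22, Il20 and Il24 were under the filter, and of 12 tested IL-6 family members Il6st and Il27ra rose and 0 fell. The IL-20 family gave 4 falls without vehicle b and 0 calls without STAT3i a.

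In the IL-1 and IL-36 family the alpha and beta forms of IL-1 parted. Il1b was at 0.886, 1.4, 0.318 and 0.729 RPKM with vehicle and at 1.6, 1.77 and 1.66 RPKM with STAT3i, a rise of 0.58 ± 0.17 (log2, SE, adjusted p = 0.0406, 9 of 21 alternatives). Il1a, made constitutively by keratinocytes, was at 3.93, 3.77, 2.97 and 3.29 RPKM with vehicle and at 2.06, 1.94 and 2.27 RPKM with STAT3i, a fall of 0.53 ± 0.13 (log2, SE, adjusted p = 0.0227, 17 of 22). Neither gene's groups overlapped. Il1f6 (IL-36 alpha) rose by 0.91 ± 0.25 (adjusted p = 0.0329, 9 of 21), as did the receptor gene Il1r1 by 0.35 ± 0.09 (adjusted p = 0.028, 15 of 22) and Casp1, whose product activates IL-1 beta, by 0.54 ± 0.16 (adjusted p = 0.0401). In all, 4 of 16 members rose and 1 fell (31.2% called, against 15.4% of all tested genes), with a median of 0.26. No member passed without any one of the STAT3i libraries, and the number of rises was 0 without vehicle d and 1 without vehicle c.

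**Figure D2:**
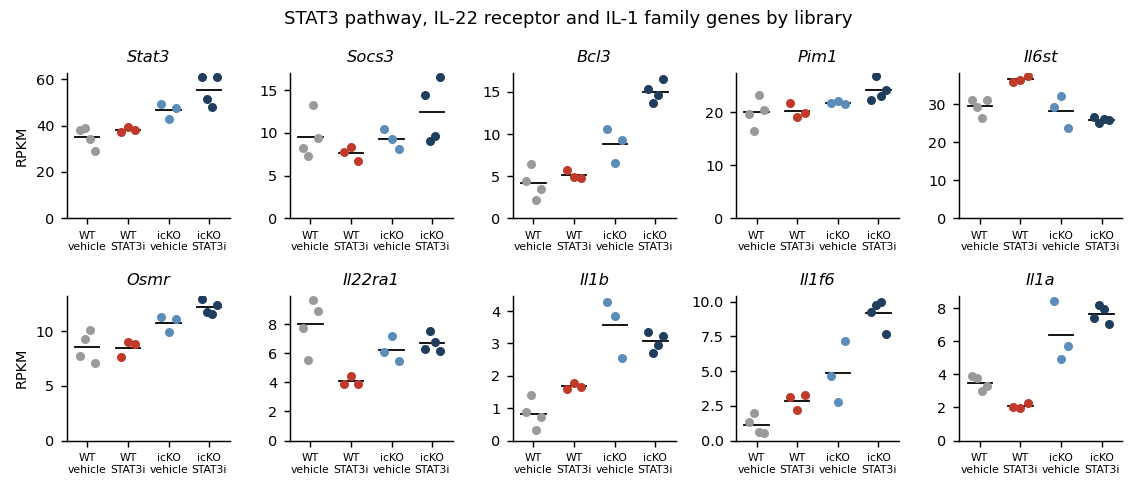
RPKM of 10 STAT3 pathway, IL-22 receptor and IL-1 family genes in each library (points) with the group mean (black line), for WT and icKO epidermis with vehicle or STAT3i; icKO vehicle libraries a and b are 1 point. In WT libraries Socs3 overlapped between groups (6.74 to 8.29 against 7.31 to 13.3 RPKM), whereas Il22ra1 and Il1a were lower and Il6st was higher in each STAT3i library.

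The list with the largest share of higher genes was that of antigen presentation through MHC class II, the molecules with which dendritic cells, Langerhans cells and macrophages display peptides to helper T cells. Of 16 tested Langerhans and MHC class II genes, 10 rose and 0 fell (62.5% called, against 15.4% of all tested genes), and the median log2 change was 0.82. Cd74, the invariant chain that loads class II molecules, was at 830, 1450, 560 and 648 RPKM with vehicle and at 2790, 2230 and 2510 RPKM with STAT3i. Every STAT3i library was above every vehicle library, and Cd74 rose by 1.62 ± 0.27 (log2, SE, adjusted p = 0.00677, 20 of 22 alternatives). Ciita, the master transcriptional activator of class II genes, was at 3.59, 4.27, 2.4 and 2.95 RPKM and at 8.88, 8.16 and 8.5 RPKM in the same order. Its mean was 2.58 times that of vehicle (1.16 ± 0.19, adjusted p = 0.00679, 21 of 22). H2-Aa, a class II alpha chain, went from 462, 756, 333 and 356 RPKM to 1160, 1100 and 1180 RPKM (1.34 ± 0.23, adjusted p = 0.00728, 20 of 22). The beta chain genes H2-Ab1 and H2-Eb1 and the peptide exchange genes H2-DMa and H2-DMb1 rose by 0.72 to 1.20, as did Itgax, Cd86 and Flt3, genes of dendritic cells, by 0.75 to 1.04. Cd207, which encodes the Langerhans cell lectin langerin, was at 14.3 to 18.7 RPKM with vehicle and at 22.4 to 25.0 RPKM with STAT3i and did not pass (0.56 ± 0.19, adjusted p = 0.0584).

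The promoters of H2-Aa and H2-Eb1 are shown because these genes moved together and both hold the letters CTGATTGG (in capitals), the core of the Y box of class II promoters. They are the RefSeq sequences of the 150 bases before the start on GRCm38.p6, H2-Aa at chr17:34287824-34287973 on the minus strand and H2-Eb1 at chr17:34305717-34305866 on the plus strand.
H2-Aa: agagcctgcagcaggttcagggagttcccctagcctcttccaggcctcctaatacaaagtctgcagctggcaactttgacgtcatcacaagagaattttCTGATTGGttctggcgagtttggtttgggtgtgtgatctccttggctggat
H2-Eb1: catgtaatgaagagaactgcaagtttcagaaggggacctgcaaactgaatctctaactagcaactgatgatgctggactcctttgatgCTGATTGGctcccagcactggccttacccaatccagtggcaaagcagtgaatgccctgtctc
The match began 51 bases before the start in H2-Aa and 62 bases before it in H2-Eb1. On either strand of the 250 bases before the start, these letters were found in 3.83% of the promoter windows in the table, in 5.95% of the 10162 tested genes with a window and in 2 of the 10 tested members of the list that have one.

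Macrophage genes were high in each STAT3i library but also in 2 of the 4 vehicle libraries. Csf1r, the receptor of the macrophage growth factor CSF1, was at 146, 138, 28.5 and 42.7 RPKM in vehicle a to d and at 232, 199 and 232 RPKM with STAT3i (log2 change 1.63 ± 0.46, SE, adjusted p = 0.0333, 11 of 22 alternatives). Adgre1, which encodes the F4/80 antigen, was at 40.9, 42.1, 6.97 and 9.45 RPKM and at 59.0, 56.4 and 63.5 RPKM in the same order (1.62 ± 0.50, adjusted p = 0.0444, 10 of 22). In ratio, the step from vehicle c and d to a and b was larger than that from a and b to STAT3i. Of 18 macrophage genes 9 rose (Adgre1, Cd68, Csf1r, Mrc1, Lyz2, Cd14, Ccr2, Msr1 and Folr2) and 0 fell (50% called, against 15.4% of all tested genes), with a median of 1.51. The number was 0 without any one of vehicle c, vehicle d, STAT3i a, STAT3i b or STAT3i c, and 15 without vehicle a or without vehicle b. Without vehicle c and d together 1 gene rose and the median was 0.39, while the MHC class II list then gave 3 rises and a median of 0.56. That list kept 8 rises without vehicle c or without vehicle d, 3 without STAT3i a, 4 without STAT3i c and 2 in a fit of the WT libraries alone. Neutrophil-associated genes Csf3r and Itgam, 2 of 7 tested, rose with the same split among the vehicle libraries, Csf3r being at 4.51, 6.03, 0.618 and 0.651 RPKM with vehicle and at 9.12, 8.74 and 8.54 RPKM with STAT3i.

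Part of the chemokine genes were higher too. Of 24 tested, 8 rose (Ccl7, Ccl8, Ccl11, Ccl20, Ccl21a, Ccl22, Ccl27a and Cxcl16) and 0 fell (33.3% called, against 15.4% of all tested genes), with a median of 0.60. Ccl27a, a keratinocyte chemokine that draws skin-homing T cells, was at 18.9, 22.7, 22.2 and 18.1 RPKM with vehicle and at 56.9, 41.4 and 45.5 RPKM with STAT3i. It did not follow the macrophage split, its groups did not overlap, and it rose by 1.18 ± 0.18 (log2, SE, adjusted p = 0.00417, 21 of 22 alternatives). Ccl21a, a lymphatic chemokine with near-identical copies that the counting may not separate, rose by 0.76 ± 0.16 (adjusted p = 0.0152, 18 of 22). Ccl8, a chemokine of macrophages, was at 486, 876, 58.2 and 55.2 RPKM with vehicle and at 1160, 1040 and 1180 RPKM with STAT3i (2.54 ± 0.78, adjusted p = 0.044, 10 of 22), and so moved with the macrophage list. The list's count was 1 without STAT3i a, without STAT3i c or without vehicle c and d together, 2 without vehicle d, 3 without STAT3i b and 4 without vehicle c.

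Interferon-stimulated genes gave 0 calls among 32 tested (median -0.11), 8 tested genes of the IL-17 and IL-23 axis gave 0, and of 16 T cell genes Foxp3 rose, from 0.193 to 1.4 RPKM with vehicle to 1.61 to 1.89 RPKM with STAT3i (0.84 ± 0.26, adjusted p = 0.0453). Of 15 antimicrobial genes, Rnase6, Lyz2 and Pglyrp1 rose and Defb14 fell (26.7% called, against 15.4% of all tested genes, median 0.67). The rises were 1 without any one STAT3i library, vehicle c or vehicle d, and 7 without vehicle b. Rnase6, a secreted ribonuclease, was at 4.87, 5.56, 3.53 and 4.13 RPKM with vehicle and at 11.4, 9.22 and 9.81 RPKM with STAT3i, a rise of 1.02 ± 0.15 (log2, SE, adjusted p = 0.00417, 21 of 22 alternatives). Defb14, a beta-defensin of keratinocytes, was at 3.62 to 6.34 RPKM with vehicle and at 2.13 to 3.04 RPKM with STAT3i and fell by 0.78 ± 0.17 (adjusted p = 0.0164).

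**Figure D3:**
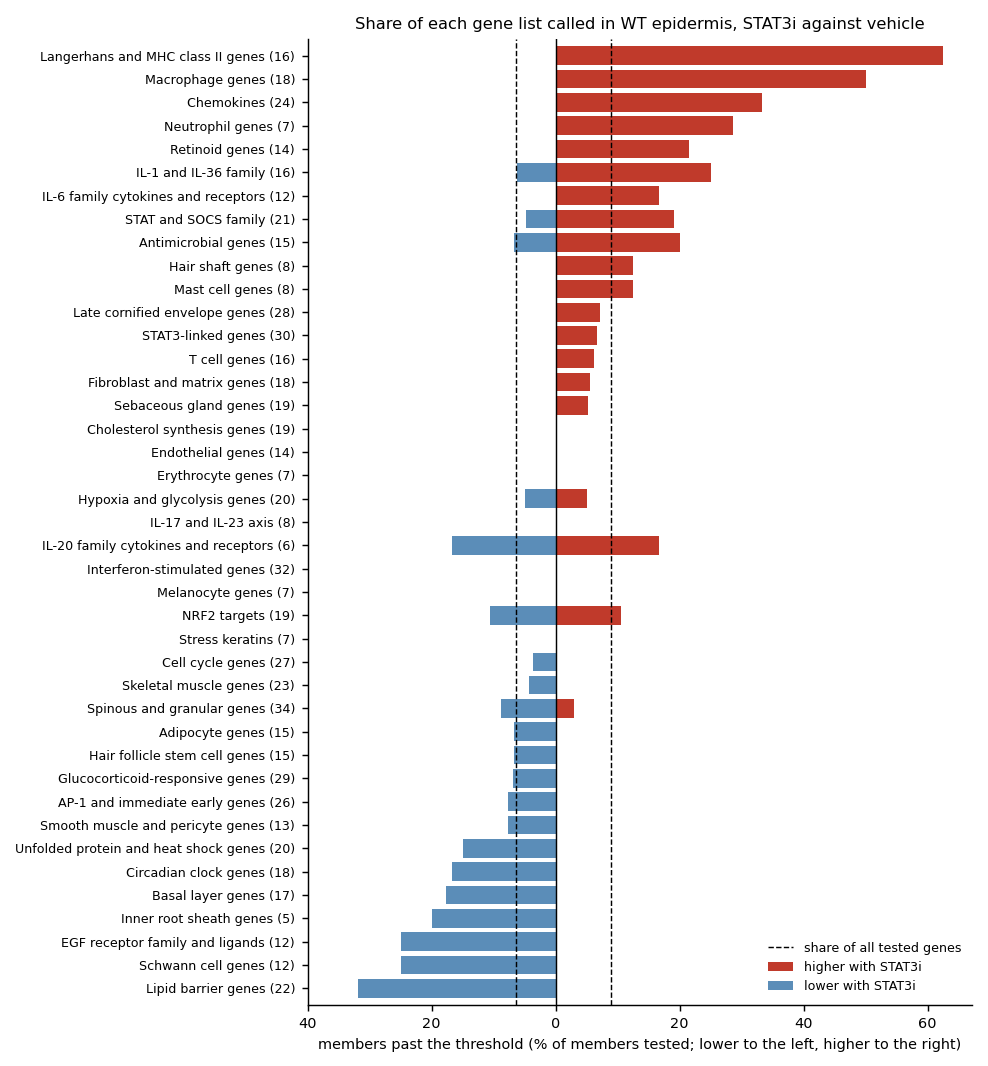
Share of the tested members of each gene list that passed the threshold, higher (right, red) or lower (left, blue) with STAT3i in WT epidermis; the number of members tested is in brackets and dashed lines mark the shares of all tested genes (8.98% higher, 6.40% lower). The Langerhans and MHC class II, macrophage and chemokine lists had the largest shares of higher genes, and the lipid barrier list had the largest share of lower genes.

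Genes of retinoid handling gave 3 rises among 14 tested (21.4% called, against 15.4% of all tested genes), with a median log2 change of 0.16. Vitamin A is taken up and oxidised in skin to retinoic acid, which controls keratinocyte differentiation and induces the genes that clear it. Stra6, a membrane transporter of retinol, was at 0.744, 1.18, 0.327 and 0.618 RPKM with vehicle and at 3.81, 7.94 and 3.76 RPKM with STAT3i, a rise of 1.80 ± 0.27 (log2, SE, adjusted p = 0.00417) that held in 21 of 21 alternatives. Of the vehicle libraries only b reached 1 RPKM, so Stra6 passed the filter through the STAT3i libraries and was near the floor with vehicle. Cyp26b1, the enzyme that degrades retinoic acid, was at 39.0, 38.7, 32.4 and 26.9 RPKM with vehicle and at 63.5, 58.5 and 60.4 RPKM with STAT3i (0.82 ± 0.13, adjusted p = 0.00533, 21 of 22). Dhrs3, which returns retinaldehyde to retinol, was at 38.9, 54.1, 39.2 and 32.7 RPKM and at 67.8, 56.1 and 65.5 RPKM in the same order (0.62 ± 0.13, adjusted p = 0.0142). None of the 3 showed overlap between the groups. The retinoic acid receptor gene Rarg (-0.21 ± 0.13, adjusted p = 0.282), the binding protein gene Crabp2 (-0.34 ± 0.23, adjusted p = 0.334) and the synthesis genes Rdh10 (0.10 ± 0.08, adjusted p = 0.399) and Aldh1a2 (0.37 ± 0.18, adjusted p = 0.162) did not pass, and Rarb and Cyp26a1 were under the filter. Without vehicle c and d together the list still gave 2 rises, and it gave 2 without STAT3i a or without STAT3i c.

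Some genes of the epidermal barrier were lower. The lipid barrier list holds enzymes and transporters that make the ceramides of the cornified layer. Of its 22 genes 7 fell (Cers3, Sdr9c7, Alox12b, Aloxe3, Abca12, Abhd5 and Sptlc3) and 0 rose (31.8% called, against 15.4% of all tested genes), with a median of -0.10. Cers3, a ceramide synthase for very long acyl chains, was at 13.4, 11.3, 14.7 and 15.3 RPKM with vehicle and at 7.15, 7.78 and 7.48 RPKM with STAT3i (-0.79 ± 0.14, SE, adjusted p = 0.00841, 20 of 22 alternatives). Sdr9c7, a dehydrogenase that acts on oxidised ceramides, was at 21.3, 19.0, 20.4 and 23.9 RPKM and at 11.8, 12.2 and 12 RPKM in the same order (-0.76 ± 0.15, adjusted p = 0.0103). In both genes every STAT3i library lay below every vehicle library. Alox12b, the 12R-lipoxygenase that starts ceramide oxidation, was at 30.4 to 34.3 RPKM with vehicle and at 22.4 to 22.6 RPKM with STAT3i (-0.48 ± 0.09, adjusted p = 0.0109). The number of falls was 5 without vehicle c, without vehicle d or without STAT3i b, 1 without STAT3i c, 0 without STAT3i a, and 2 without vehicle c and d together.

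Of the spinous and granular and the basal layer lists, a few genes passed. Dsc1, a desmosomal cadherin of the upper layers, was at 28.0, 23.1, 32.0 and 32.9 RPKM with vehicle and at 12.8, 15.9 and 14.9 RPKM with STAT3i (-0.94 ± 0.20, SE, adjusted p = 0.0141, 18 of 22 alternatives). Itga6, the hemidesmosomal integrin chain of basal cells, was at 21.9, 19.2, 28.8 and 27.5 RPKM and at 12.8, 17.3 and 14.6 RPKM in the same order (-0.67 ± 0.15, adjusted p = 0.0163). The groups did not overlap for either gene. Itga3, another basal integrin chain, fell by 0.55 ± 0.10 (adjusted p = 0.0101). In all, 3 of 17 basal layer genes fell, these integrin genes among them, and 0 rose (17.6% called, against 15.4% of all tested genes, median -0.33). The number of falls was 0 without STAT3i a, without STAT3i c or without vehicle c and d together, and 6 without vehicle b. Among 34 spinous and granular genes Dsc1, Spink5 and Notch3 fell and Cst6 rose (11.8% called, against 15.4% of all tested genes, median -0.31). In that list 10 fell without vehicle b, 1 without STAT3i a and 0 without STAT3i c. Cst6 encodes cystatin M/E, a protease inhibitor of the cornified layer, and was at 169, 162, 125 and 152 RPKM with vehicle and at 344, 376 and 306 RPKM with STAT3i (1.17 ± 0.24, adjusted p = 0.0137, 18 of 22).

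The main structural genes of the epidermis did not pass with all libraries, and for some this rested on vehicle b. Krt10 was at 2990, 3020, 3790 and 3860 RPKM with vehicle and at 2490, 2350 and 2460 RPKM with STAT3i (-0.48 ± 0.17, SE, adjusted p = 0.0741). Lor, which encodes loricrin, was at 482, 392, 954 and 1040 RPKM and at 446, 367 and 378 RPKM in the same order (-0.73 ± 0.30, adjusted p = 0.115). The high Lor values were those of vehicle c and d. Krt1 (adjusted p = 0.459), Krt5 (0.132) and Krt14 (0.867) did not pass, 7 tested stress keratins gave 0 calls, and of 28 late cornified envelope genes Lce6a and Sprr4 rose. Krt6b was at 2.92, 89.2, 0.817 and 1.28 RPKM with vehicle and at 18.9, 8.19 and 17.8 RPKM with STAT3i, above 3 of the 4 vehicle libraries (1.29 ± 1.04, adjusted p = 0.413). Without vehicle b, whose Dlx3 was below the icKO level, Krt6b rose by 2.58 (log2, adjusted p = 0.0037), Krt16 rose by 2.22 (adjusted p = 0.00379) and Lor fell by 0.98 (adjusted p = 0.021). The late cornified envelope list then gave 10 rises and 2 falls, and the stress keratins 2 rises. Over all alternatives, Krt6b passed in 2 of 21, Krt16 in 2 of 22 and Lor in 3 of 22. The log2 changes there ran from -0.32 to 2.89 for Krt6b, -0.26 to 2.6 for Krt16 and -1.33 to -0.13 for Lor.

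Of 12 genes of the EGF receptor family and its ligands 3 fell and 0 rose (25% called, against 15.4% of all tested genes), with a median of -0.24. The number of falls was 0 without STAT3i a or STAT3i c, 1 without STAT3i b, vehicle a or vehicle d, and 6 without vehicle b. Ereg (epiregulin), a ligand made by keratinocytes, was at 6.64, 4.72, 5.8 and 5.12 RPKM with vehicle and at 2.05, 2.87 and 2.48 RPKM with STAT3i (-0.92 ± 0.18, SE, adjusted p = 0.0103, 19 of 22 alternatives). Egf fell by 0.55 ± 0.16 (adjusted p = 0.0371, 12 of 22), and the receptor gene Erbb3 by 0.62 ± 0.18 (adjusted p = 0.036, 10 of 22) although its groups overlapped. Cell cycle genes gave 1 fall (Rrm2) and 0 rises among 27 tested (median 0.17).

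**Figure D4:**
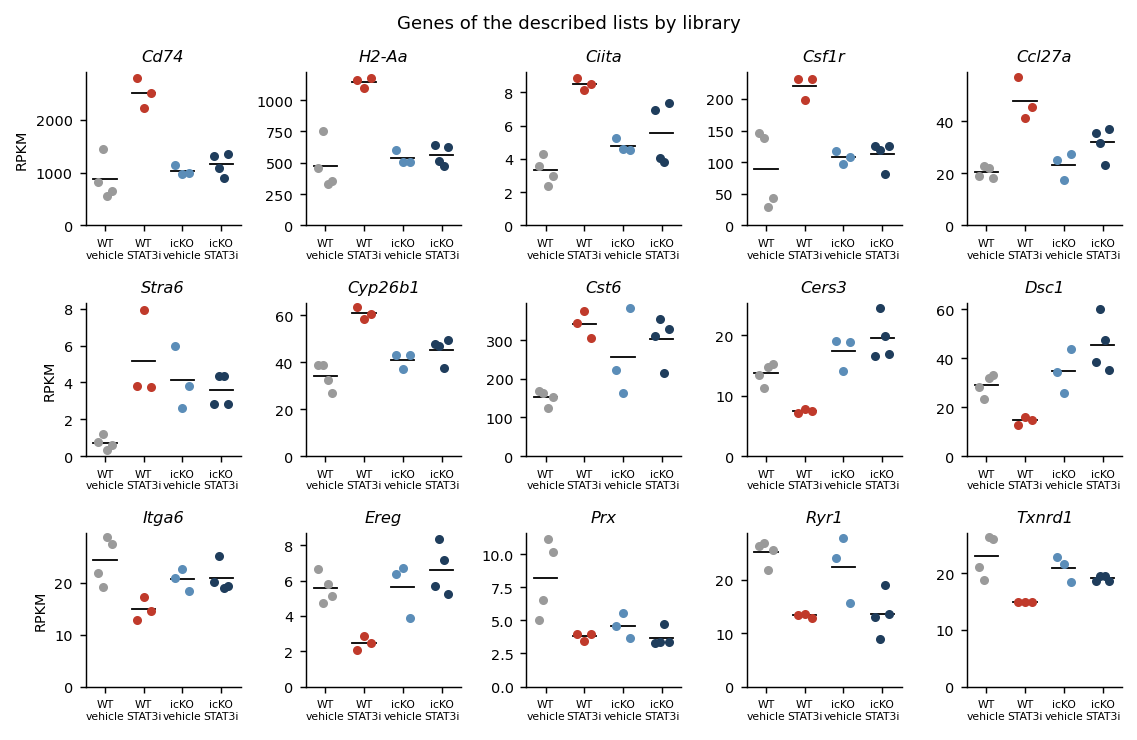
RPKM of 15 genes of the lists described, in each library (points) with the group mean (black line), for WT and icKO epidermis with vehicle or STAT3i; icKO vehicle libraries a and b are 1 point. In WT libraries Cd74, Ciita, Ccl27a, Stra6 and Cst6 were higher and Cers3, Dsc1, Ereg and Txnrd1 lower in every STAT3i library, whereas Csf1r and Prx also differed widely among vehicle libraries.

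Stress and metabolic lists were called at shares mostly near or below the 15.4% of all tested genes. The shares were 21.1% for NRF2 targets, 16.7% for clock genes and 15% for heat shock and unfolded protein genes. They were 10% for hypoxia and glycolysis genes and 6.9% for glucocorticoid-responsive genes. Of 19 NRF2 targets, Hmox1 and Ftl1 rose and Txnrd1 and Gsr fell (median -0.07). Txnrd1, thioredoxin reductase, was at 21.2, 18.8, 26.5 and 26.0 RPKM with vehicle and at 14.9, 15 and 14.9 RPKM with STAT3i (-0.59 ± 0.11, SE, adjusted p = 0.00906, 19 of 22 alternatives). Hmox1, heme oxygenase of iron-recycling macrophages among other cells, was at 63.9, 70.5, 40.1 and 39.9 RPKM and at 93.4, 85.4 and 92.4 RPKM in the same order (0.79 ± 0.18, adjusted p = 0.0178), low in vehicle c and d like the macrophage list. Heat shock and unfolded protein genes fell at 3 of 20 (Hspd1, Hsp90aa1 and Trib3, by 0.38 to 0.48) and circadian clock genes at 3 of 18 (Rora, Cry1 and Cry2, by 0.29 to 0.50), with 0 rises in either. Both lists gave 0 calls without STAT3i a or without STAT3i c. The clock gene Per1 was at 37.3 to 44.9 RPKM with vehicle and at 55.8 to 59.0 RPKM with STAT3i and did not pass (0.44 ± 0.16, adjusted p = 0.0715). Glucocorticoid-responsive genes fell at 2 of 29 (Cdkn1a and Pdk4), of which Pdk4 lay just inside the threshold (adjusted p = 0.05 after rounding) and overlapped between groups. Fkbp5, Tsc22d3 and Zbtb16 of that list overlapped between groups, with vehicle d the lowest library in each (Fkbp5 at 87.2, 62.9, 92.7 and 19.2 RPKM with vehicle and at 84.2, 59.9 and 83.0 RPKM with STAT3i). The cholesterol synthesis list gave 0 calls among 19, and the hypoxia and glycolysis list gave 1 rise and 1 fall among 20.

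The muscle, fibroblast, gland and vessel lists gave at most 1 call each, and the Schwann cell list gave 3, or 0 without any one STAT3i library. Prx, which encodes periaxin of Schwann cells, was at 5.03, 6.56, 11.2 and 10.2 RPKM with vehicle and at 3.99, 3.48 and 3.95 RPKM with STAT3i, a fall of 0.89 ± 0.21 (log2, SE, adjusted p = 0.0202, 14 of 22 alternatives). The vehicle libraries with high Prx were c and d. Of 12 Schwann cell genes 3 fell, Prx and Mal among them, and 0 rose (25% called, against 15.4% of all tested genes, median -0.36). The mean level of the list was 3.24 to 4.03 with vehicle and 3.24 to 3.31 with STAT3i, so that vehicle a lay within the STAT3i range. In skeletal muscle, Ryr1, the calcium release channel, was at 26.3, 27.0, 21.8 and 25.6 RPKM with vehicle and at 13.5, 13.6 and 12.9 RPKM with STAT3i (-0.86 ± 0.21, adjusted p = 0.022). Acta1 did not pass (0.03 ± 0.25, adjusted p = 0.954), and Ryr1 was the 1 call among 23 muscle genes (median -0.39). Mstn (myostatin, a muscle growth inhibitor) fell by 1.48 ± 0.37 (adjusted p = 0.0226), and Myl2, a slow muscle light chain, rose by 2.32 ± 0.49 (adjusted p = 0.0137). Pdgfra was the 1 rise among 18 fibroblast genes (median 0.48), and Mc5r, a melanocortin receptor of sebaceous glands, the 1 rise among 19 sebaceous gland genes. Endothelial, melanocyte and erythrocyte lists gave 0 calls among 14, 7 and 7 tested genes. Whether the shares of these tissues in the samples contributed to the differences was not tested beyond covariates for muscle and fibroblast levels, with which 2828 and 980 genes were called.

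The steepest rises were seen in genes that also differed widely among vehicle libraries. Klk1b21, a kallikrein with near-identical copies, was at 25.5, 87.4, 0.178 and 0.247 RPKM with vehicle and at 175, 140 and 164 RPKM with STAT3i (log2 change 4.38 ± 1.20, SE, adjusted p = 0.0308, 10 of 21 alternatives), and Klk1b24 and Klk1b27 were likewise lowest in vehicle c and d. The peptide hormone gene Pyy was at 0.743, 30, 0.721 and 1.24 RPKM with vehicle and at 41.0, 52.2 and 33.0 RPKM with STAT3i (3.48 ± 0.88, adjusted p = 0.0245, 11 of 21). Cd300ld4 and Cd300ld5, myeloid receptor genes listed with identical values, rose by 2.62 ± 0.68 (adjusted p = 0.0257). AA467197, also known as Nmes1, was at 1.13, 2.95, 0.111 and 0.288 RPKM with vehicle and at 8.46, 12.5 and 9.36 RPKM with STAT3i (2.56 ± 0.53, adjusted p = 0.0131, 17 of 21), and the beta-defensin gene Defb7 rose by 2.24 ± 0.52 (adjusted p = 0.0191).

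Among the largest falls, Calm5 and Mboat2 held in most alternatives, and others described here did not. Calm5 (synonym Scarf2), a calmodulin-like gene of differentiating keratinocytes, was at 21.8, 24.2, 31.0 and 31.0 RPKM with vehicle and at 10.6, 12.3 and 9.3 RPKM with STAT3i (-1.25 ± 0.19, SE, adjusted p = 0.00461, 21 of 22 alternatives). Mboat2, a membrane acyltransferase, was at 20.4, 15.8, 29.9 and 28.5 RPKM and at 9.44, 11.5 and 10.6 RPKM in the same order (-1.06 ± 0.17, adjusted p = 0.00677, 20 of 22). The falls of this paragraph were named only among genes whose groups did not overlap, so their lack of overlap is not a separate result. Serpinb7, a protease inhibitor of the upper epidermis, fell by 1.06 ± 0.30 (adjusted p = 0.0342, 11 of 22). It was at 45.8, 32.1, 99 and 83.7 RPKM in vehicle a to d. Scgb1a1, a secretoglobin, fell by 1.16 ± 0.32 (adjusted p = 0.0312, 9 of 22). Hoxa9, a homeobox gene at 1 to 6.04 RPKM with vehicle, fell by 1.18 ± 0.36 (adjusted p = 0.0426, 9 of 21). The small nucleolar RNA gene Snord47 fell by 1.13 ± 0.34 (adjusted p = 0.0422, 6 of 21) at 1.26 to 3.66 RPKM with vehicle.

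A further set of genes differed between inhibitor and vehicle by similar amounts in WT and in icKO epidermis, comparisons that share no library. In icKO epidermis, with vehicle a and b averaged as 1 library because they were far closer at high read numbers than other vehicle pairs, 81 genes were called (0.613% of those tested), 40 higher (0.303%) and 41 lower (0.310%). Of the 1187 WT rises 23 were among the 40, and of the 845 WT falls 18 were among the 41, while 1 WT call was called in the opposite direction. Higher calls were 49.4% of the icKO calls, and 62.3% after quantile normalization. With icKO vehicle a and b kept separate, 689 genes were called. Rplp2-ps1, a pseudogene of a ribosomal protein, was at 9.79, 11.6, 7.29 and 8.15 RPKM in WT vehicle libraries and at 44.3, 53.5 and 45.5 RPKM in WT STAT3i libraries. In icKO it was at 3.35, 6.02 and 8.48 RPKM with vehicle and at 47.0, 56.5, 83.7 and 48.6 RPKM with STAT3i. The log2 change was 2.27 ± 0.25 (SE, adjusted p = 0.00095) in WT and 3.14 in icKO (adjusted p = 9.31e-05). Gm12070, a transcribed pseudogene, rose by 2.31 and 2.27 in WT and icKO, and Aldoart1, a retrotransposed relative of aldolase A named after its values were seen for its low adjusted p in WT (0.000532), by 2.1 and 1.9. Of 84 tested RefSeq pseudogenes 12 rose and 6 fell in WT (21.4%, against 15.4% of all tested genes). In icKO 7 rose and 2 fell, where 0.613% of all tested genes were called. Reads of such copies can come from their parent genes, and the sources used here do not say how the counting split them.

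Falls were shared by the genotypes too, and shared calls were not limited to pseudogenes and retrotransposed copies. Among protein-coding genes named after their values were seen, Eif5b fell by 0.66 in WT (adjusted p = 0.00229) and 0.45 in icKO (0.0341). Akr1b3 rose by 1.02 in WT (adjusted p = 0.00139) and 1.14 in icKO (0.000766). H2-L, a class I histocompatibility gene that some mouse strains carry and others lack, was at 23.6, 6.05, 9.81 and 16.2 RPKM in WT vehicle libraries and at 0.897, 0.517 and 0.793 RPKM in WT STAT3i libraries. In icKO it was at 13.4, 12 and 26.8 RPKM with vehicle and at 0.645 to 2.2 RPKM with STAT3i (log2 change -2.96 ± 0.38, SE, adjusted p = 0.00252 in WT and -3.09 in icKO, adjusted p = 0.00286). Gm20594 (synonym Mtrnr2l) fell by 1.36 ± 0.20 (adjusted p = 0.00417) in WT and by 1.33 in icKO, and Mylk4, a myosin light chain kinase gene, by 1.14 ± 0.19 (adjusted p = 0.007) and 1.12. Mir703, counted at its hairpin on chromosome 5, 98475556 to 98475664, minus strand, GRCm38.p6, was at 28.7, 30.8, 31.0 and 28.0 RPKM with vehicle and at 7.67, 10.4 and 11.6 RPKM with STAT3i in WT. In icKO it was at 25.6 to 34.8 RPKM with vehicle and at 6.48 to 11.4 RPKM with STAT3i, a fall of 1.51 ± 0.17 (adjusted p = 0.00095) in WT and 1.71 in icKO (adjusted p = 0.000689). Its RefSeq mature sequence is shown with the seed, bases 2 to 8, in capitals. Counts at a hairpin do not separate the mature miRNA from its precursor.
miR-703: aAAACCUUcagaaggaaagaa
Rplp2-ps1, Gm12070, Mir703 and Gm20594 stayed past the threshold in WT in 22 of 22 alternatives and H2-L in 21 of 21. The labels give no litter, date or instrument for these libraries, and 2 sequencing instruments are named for the series, so the agent and any such difference between the groups cannot be told apart.

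**Figure D5:**
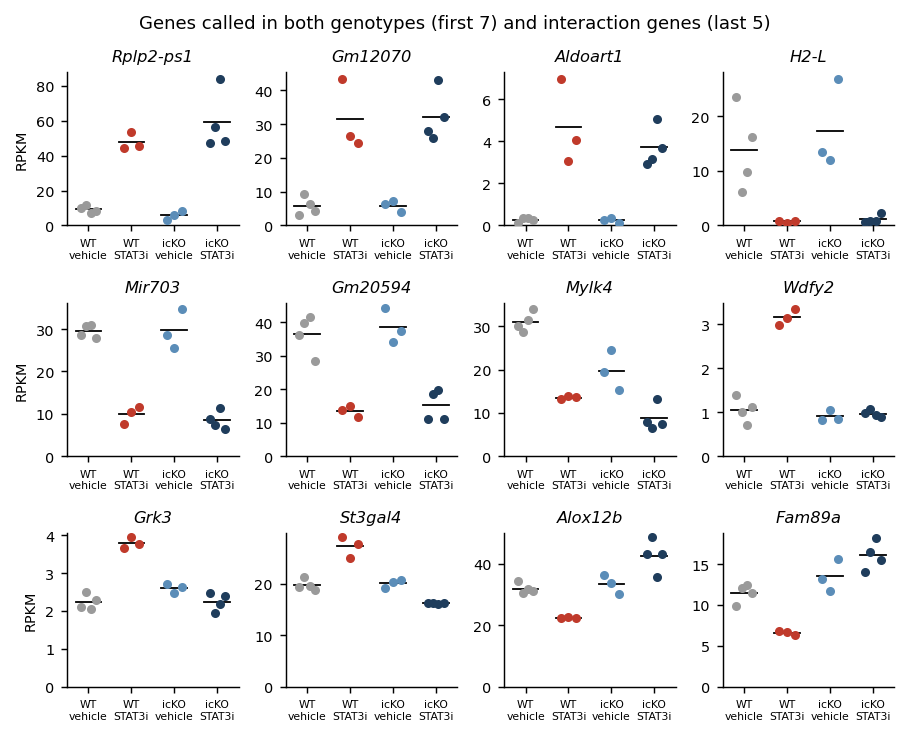
RPKM of 7 genes called in both genotypes (top row and the first 3 of the middle row) and of 5 genes whose STAT3i effect differed between genotypes, in each library (points) with the group mean (black line); icKO vehicle libraries a and b are 1 point. Rplp2-ps1 and H2-L moved alike in WT and icKO libraries, while Wdfy2 was at 2.97 to 3.35 RPKM in WT STAT3i libraries and at no more than 1.38 RPKM in the other 3 groups.

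Some genes that changed in WT epidermis did not pass in icKO epidermis. Cd74 was at 1140, 968 and 986 RPKM with vehicle and at 1320, 1080, 894 and 1350 RPKM with STAT3i in icKO (log2 change 0.16, adjusted p = 0.788), and Stra6 was at 5.98, 2.6 and 3.8 RPKM and at 2.85, 4.37, 4.36 and 2.83 RPKM in the same order (-0.12, adjusted p = 0.839). The median log2 change in icKO was 0.02 for the Langerhans and MHC class II list, 0.04 for the macrophage list and 0.25 for the lipid barrier list, with 0 members called in each. Other lists had an icKO median at or above that of WT, with 0.28 against 0.26 for the IL-1 and IL-36 family, 0.21 against 0.15 for T cell genes and 0.49 against -0.11 for interferon-stimulated genes. The difference between genotypes did not pass the threshold for Cd74 (interaction adjusted p = 0.0983), H2-Aa (0.0979), Stra6 (0.064), Cers3 (0.073) or Il1a (0.0879), which does not show that the genotypes responded alike.

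The interaction passed for 16 genes (0.121% of those tested), 9 with a higher log2 change in WT (0.0681%) and 7 with a lower one (0.0530%), and 2699 genes had an unadjusted p under 0.05. Interactions with the higher change in WT were 56.2% of the 16, and 32.3% after quantile normalization. Wdfy2, an endosomal adaptor gene, was at 1.38, 1.01, 0.698 and 1.11 RPKM in WT vehicle libraries and at 2.97, 3.13 and 3.35 RPKM in WT STAT3i libraries. In icKO it was at 0.816 to 1.05 RPKM with vehicle and at 0.891 to 1.06 RPKM with STAT3i (WT change 1.03 ± 0.10, SE, adjusted p = 0.000532; interaction 0.98, adjusted p = 0.0371). Alox12b, described above, had 36.4, 33.9 and 30.1 RPKM with vehicle and 43.1, 48.7, 35.8 and 43.4 RPKM with STAT3i in icKO, opposite to its fall in WT (interaction -0.82, adjusted p = 0.0489). The sialyltransferase gene St3gal4, the receptor kinase gene Grk3, the tetraspanin gene Tspan4 and 9930111J21Rik1, an interferon-inducible GTPase family gene with close relatives, rose in WT by 0.45 to 0.93 and had interactions of 0.73 to 0.99. Of these, 9930111J21Rik1 was at 0.159 to 0.612 RPKM in WT vehicle and icKO libraries. It passed the filter only through the WT STAT3i libraries, at 1.43 to 1.77 RPKM. Dusp18, Fam89a, Tuba4a and Lgalsl fell in WT by 0.28 to 0.71 and had interactions of -0.95 to -0.65. All these calls rested on few libraries: the number was 0 without STAT3i a, 0 without STAT3i c, 4 without STAT3i b, 9 without vehicle c or without vehicle d, 420 without vehicle a and 853 without the library labelled WT vehicle b. With icKO vehicle a and b kept separate it was 291. It was also 0 when icKO STAT3i libraries a and d, the closest pair of libraries within a group (r = 0.9991), were averaged to 1, and the icKO count was then 26. The icKO libraries mostly carried Xist and the WT libraries mostly Ddx3y, so genotype and sex cannot be told apart in the interaction, and with a term for sex 4 genes were called.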

How the data were processed

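RNA of mouse epidermis was sequenced. Per the labels' protocols, NEBnext reagents gave the cDNA and NuGen reagents, run on a Mondrian instrument, gave the libraries. Per the file headers, the authors aligned reads to mm10 with TopHat and calculated RPKM in Partek; the submitters' processing notes give TopHat2 2.1.0. The sources used here do not give strandedness or the treatment of shared reads. Depth was read from the alignment totals in the table header. The deposited comparison table also gave the authors' ratios, p-values and q-values, which were read as given, and its log2 group means were not used. Whole reads could not be recovered from the RPKM, so no count test was run.

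Genes at 1 RPKM or more in at least 3 of the 7 WT libraries were analysed as log2(RPKM + 1), so fold changes of low genes are understated. The 15 day 3 epidermis libraries shared 1 linear model in limma 3.58.1 (R 4.3.3) with empirical Bayes moderation and an intensity trend. The two-sided p-values were adjusted by Benjamini-Hochberg over all 13211 genes, with 0.05 as the threshold. The columns carry no replicate number, so libraries were lettered. icKO vehicle libraries a and b were averaged, which the planned design did not foresee, because over 10000 reads their squared difference was 3.67 times its counting expectation, against 12.8 to 303 times in other pairs. At 100 to 1000 reads it was 2.63 times, and 2.22 times in icKO STAT3i a and d, so the pair differed by more than counting noise. The fit was tested on simulated data with independent noise in each library. Such data do not hold the split among vehicle libraries, so its effect on the calls was not tested there.

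The genes, lists and comparison were chosen with earlier results of these data known, so lists have no test. List counts are to be read against the 15.4% of all tested genes called in WT, and list medians against -0.005. Named by rule were 23 fixed genes and the cell type markers, the 12 largest rises and falls without overlap, the 3 lowest adjusted p of each list with at least 3 members called, and 5 interaction genes in each direction. Other members past the threshold were named within their lists, and pseudogenes, miRNA and small nucleolar RNA genes were counted after the data were seen. Sequences are from RefSeq (GRCm38.p6). Some genes counted within their lists are not reported here by name.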

Additional observations from a re-analysis of the deposited data

Results flagged for a closer look

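Among 130 named genes, 4 had a vehicle library that stood apart from the other 3 beyond the limit for a group of 4, and chance alone flags about 1 in 20 groups. They were Xist at 18.7 RPKM and Ddx3y at 0.0103 RPKM in vehicle c, Pyy at 30 RPKM in vehicle b and Ptpn6 at 17.4 RPKM in vehicle d.

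In 10 named genes the change with STAT3i differed between WT and icKO by the interaction test. The number 10 was set by the naming rule, which took a fixed number of interaction genes in each direction. Of all tested genes 16 passed. The count was 0 without STAT3i a or without STAT3i c, and 853 without WT vehicle b. It was also 0 with a fibroblast covariate or with icKO STAT3i a and d averaged, and 1917 with array weights. The WT change exceeded the icKO change (log2) by 0.74 in St3gal4, 0.73 in Grk3, 0.98 in Wdfy2, 0.99 in 9930111J21Rik1 and 0.87 in Tspan4. It lay below the icKO change, with an interaction of -0.82, in Alox12b, -0.65 in Dusp18, -0.95 in Fam89a, -0.71 in Tuba4a and -0.80 in Lgalsl. The gene 9930111J21Rik1 was tested only because its WT STAT3i libraries reached 1 RPKM.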

How the results depend on the processing

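The WT count of 2032 stayed within 1.5 times under a pseudocount of 0.1 (1994), no filter (1676), 1 RPKM in all 7 libraries (1835), quantile normalization (2619), robust moderation (2011), a muscle covariate (2828), all 15 libraries separate (2480) and icKO STAT3i a and d averaged (1661). It moved to 245 with the 7 WT libraries alone, 3490 with array weights, 1344 with a sex term, 980 with a fibroblast covariate, 46 with the closest pair of each WT group averaged, 558 without vehicle c and d and 4886 without vehicle a and b, and ranged from 146 to 3275 with 1 library left out. The icKO count of 81 moved to 122 (quantile), 2593 (array weights), 123 (sex term), 31 (muscle covariate), 172 (fibroblast covariate), 689 (all 15 separate) and 26 (icKO STAT3i a and d averaged). The interaction count of 16 moved to 1 (pseudocount 0.1), 8 (no filter), 9 (1 RPKM in all 7), 62 (quantile), 1917 (array weights), 4 (sex term), 91 (muscle covariate), 0 (fibroblast covariate), 291 (all 15 separate), 0 (icKO STAT3i a and d averaged) and 3202 (without vehicle a and b), and ranged from 0 to 853 with 1 library left out. The cause of these shifts was not tested. Of 82 named genes past the threshold, 9 passed with closest pairs averaged, 24 without STAT3i a and 30 without vehicle c and d, and none changed sign in any alternative. The fits with all 15 libraries separate, with icKO STAT3i a and d averaged, and without vehicle a and b or c and d were chosen after seeing the data. No paired analysis was possible because the columns carry no replicate numbers. Precision was limited by 3 STAT3i libraries and by the spread among vehicle libraries.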

Other observations

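The alpha globin gene Hba-a1 and the beta globin gene Hbb-bs went in opposite directions in both genotypes, without passing the threshold. Of 7 tested erythrocyte genes, Hbb-bs was the 1 with a positive log2 change in WT, and the median was -0.45. Hba-a1 was at 67.4, 85.9, 43.3 and 78.2 RPKM with vehicle and at 29.3, 34.7 and 33.6 RPKM with STAT3i in WT (log2 change -1.01 ± 0.32, SE, adjusted p = 0.052), while Hbb-bs was at 59.5, 74.2, 35.5 and 71.9 RPKM and at 106, 79.2 and 78.0 RPKM in the same order (0.58 ± 0.29, adjusted p = 0.181). In icKO the log2 changes were -0.66 (adjusted p = 0.283) and 0.96 (adjusted p = 0.111). Both genes belong to families of close copies.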
